A study of Mus musculus with 10 samples.

Results

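The 47 genes described here are the mouse Wnt ligands (18 genes), the Frizzled receptors Fzd1 to Fzd10, the R-spondins (Rspo1 to Rspo4) and their receptors Lgr4, Lgr5 and Lgr6, the co-receptors Lrp5 and Lrp6, the secreted inhibitors of the Dkk family (3 genes) and the Sfrp family (5 genes, Frzb included), and Axin2 with Lef1. Open chromatin was mapped with ATAC-seq, an assay that uses a transposase to tag accessible DNA. The outbred CD1 mice were 3 pups aged 2 days after birth (P2), 3 aged 5 days (P5) and 4 aged 8 days (P8). The tissue of both cochleae of an animal was combined and its nuclei were taken without a sort, so each value is an average over all cochlear cell types. The labels name age as the difference between the groups and give no modified allele or treatment, and the files used here are 1 peak list per age with no list per animal. With 1 list per age the spread between animals cannot be measured and no difference between ages was tested.

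Peaks of the 3 lists that overlapped by at least 1 bp were merged, which gave 64911 regions. Every region was given to the closest protein-coding gene, up to 100 kb away and with distance 0 inside a gene, and 59255 regions found a gene. The Wnt genes received 267 of them, and 46 of the 47 genes received at least 1. Wnt10b received none. Each list carries the irreproducible discovery rate (IDR) of its peaks, a measure of how well 2 inputs rank a peak alike, and the sources used here do not name the animals behind the inputs. Peaks within a list are ordered here by the authors' −log10 p-value, the smaller of the 2 inputs, and a percentile of 100 is the top of a list. The strongest region of a gene is the one with the highest mean percentile over the ages at which it was called. A region counts as called at an age when that age's list holds a peak in it, as gained when it was called at P8 and not at P2, and as lost when it was called at P2 and not at P8. In whole tissue, fewer cells of a type and less accessibility per cell cannot be told apart.

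As background, Wnt ligands are secreted lipid-modified proteins that bind Frizzled receptors. With Lrp5 or Lrp6 they stabilise beta-catenin, which acts with Lef1 and the Tcf factors on target genes such as Axin2, and without these co-receptors they steer planar cell polarity. R-spondins bind Lgr receptors and keep Frizzled proteins at the surface, Dkk proteins block the co-receptors, and Sfrp proteins bind the ligands. In the neonatal cochlea, beta-catenin signalling is known for its role in the proliferation of Lgr5-positive supporting cells and their conversion to hair cells, and the polarity branch is known for orienting hair bundles.

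The sequences shown for the changes at gene starts are those of the 4 genes that had a start called at P2 and none at P8, with the other start of Wnt11 and with Axin2 as the textbook target. Lef1 and Wnt5b also had single starts called at some ages and not at others, but each had another start called at P8, and they are not shown. Of the 47 genes, 32 had an entry in the RefSeq table of start windows (build GRCm38.p6, which is mm10), each window running from 250 bases before to 50 bases after an annotated start. The 250 bases before the start are given 5′ to 3′ on the strand of the gene, in lower case, with motif matches in capitals. The motifs searched on both strands were CTTTGAT and CTTTGAA for TCF and LEF factors, CAGCTG and CACGTG for E-boxes, GGGCGG for the GC box, CCAAT for the box of that name, TATAAA for the TATA box, CATTGTT for SOX factors and TGACTCA for AP-1. The windows are chr1:135105277-135105526 for Lgr6 (minus strand), chr7:98834862-98835111 and chr7:98838595-98838844 for the outer and the inner start of Wnt11 (plus strand), chr3:104961710-104961959 for Wnt2b (minus strand), chr11:103749822-103750071 for Wnt9b (minus strand) and chr11:108920099-108920348 for Axin2 (plus strand).
Lgr6: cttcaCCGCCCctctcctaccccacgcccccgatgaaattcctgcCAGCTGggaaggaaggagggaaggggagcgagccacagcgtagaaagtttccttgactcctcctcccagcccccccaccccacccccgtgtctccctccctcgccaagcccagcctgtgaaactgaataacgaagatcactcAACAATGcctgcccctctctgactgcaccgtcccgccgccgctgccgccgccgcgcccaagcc
Wnt11 outer start: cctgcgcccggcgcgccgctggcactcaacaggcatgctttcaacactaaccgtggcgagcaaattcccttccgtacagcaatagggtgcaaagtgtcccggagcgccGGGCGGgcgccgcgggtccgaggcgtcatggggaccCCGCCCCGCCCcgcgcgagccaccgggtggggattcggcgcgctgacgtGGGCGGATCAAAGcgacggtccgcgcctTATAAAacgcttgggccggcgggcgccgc
Wnt11 inner start: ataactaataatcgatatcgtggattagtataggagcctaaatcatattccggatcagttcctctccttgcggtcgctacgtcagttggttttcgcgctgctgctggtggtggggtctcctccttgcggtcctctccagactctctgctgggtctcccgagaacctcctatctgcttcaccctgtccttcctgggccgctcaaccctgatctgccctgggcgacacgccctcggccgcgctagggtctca
Wnt2b: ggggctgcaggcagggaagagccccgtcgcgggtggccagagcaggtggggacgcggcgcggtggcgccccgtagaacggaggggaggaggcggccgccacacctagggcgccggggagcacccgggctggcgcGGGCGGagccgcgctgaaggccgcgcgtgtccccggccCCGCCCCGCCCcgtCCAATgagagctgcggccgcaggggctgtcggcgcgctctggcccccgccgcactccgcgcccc
Wnt9b: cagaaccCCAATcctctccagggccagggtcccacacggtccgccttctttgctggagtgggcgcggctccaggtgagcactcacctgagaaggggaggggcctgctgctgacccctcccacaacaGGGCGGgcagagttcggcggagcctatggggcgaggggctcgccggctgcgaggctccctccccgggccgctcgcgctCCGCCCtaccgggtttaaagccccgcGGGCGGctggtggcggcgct
Axin2: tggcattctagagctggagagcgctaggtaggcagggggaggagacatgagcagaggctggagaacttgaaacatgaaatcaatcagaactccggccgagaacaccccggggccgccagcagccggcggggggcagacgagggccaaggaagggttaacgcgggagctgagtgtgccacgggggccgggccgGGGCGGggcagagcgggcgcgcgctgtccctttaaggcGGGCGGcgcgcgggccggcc
A match is a description of letters and says nothing of binding. The Lgr6 stretch, called at P2 and P5 and not at P8, held a SOX match (AACAATG, the reverse complement of the motif) 63 bases before the start. Its GC box and E-box lay farther out, 245 and 205 bases before the start. Wnt11's outer start, not called at any age, held the TCF and LEF letters in reverse complement (ATCAAAG) 51 bases before the start, directly beside a GC box and near a TATA match, while the inner start, called at P2 alone, held no motif in these 250 bases. The Wnt2b and Wnt9b stretches, also called at P2 alone, held CCAAT and GC boxes, and the Axin2 stretch held 2 GC boxes. The Axin2 start window was overlapped by no region of the lists, but the peak called at all 3 ages lay 452 bases downstream of the start, and the uncentred extent of that peak in the inputs reached the window at every age.

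Over the 47 genes the regions numbered 220, 186 and 167 at P2, P5 and P8. From P2 to P8, 87 of the 220 P2 regions were lost, which is 39.5% (Wilson 95% interval 33.3% to 46.1%, counting error only), beside 31.7% of all assigned P2 regions. Of the 167 P8 regions 34 were gained, where the share over all assigned P8 regions was 19.0%. Gains thus made up 28.1% (20.9% to 36.7%) of the gained and lost regions of these genes and 33.5% of those of all genes. The ligands supplied 37 of the 87 losses, the Lgr receptors 11 and the Axin2 and Lef1 loci 11, and the 10 Frizzled genes 7. The length of the lists moves with age too. The P8 list is shorter than the P2 list (43878 against 52085 peaks), and with all lists shortened to the same length the Wnt genes had 39 gained and 58 lost regions (40.2% gains) while all genes had 9545 and 9835 (49.3% gains).

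**Figure D1:**
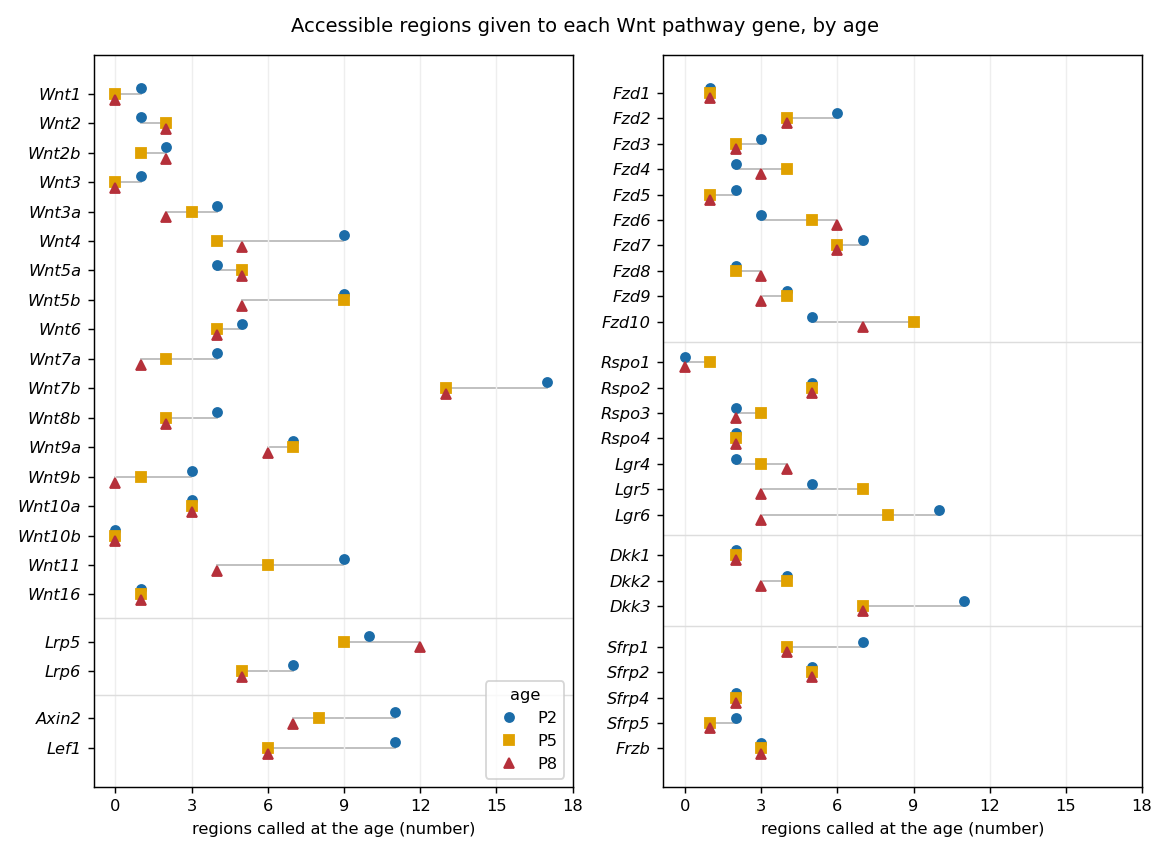
Number of accessible regions (x axis) given to each of the 47 genes (y axis) at P2 (circle), P5 (square) and P8 (triangle); each point is 1 count from 1 list and carries no error. Lgr6 runs from 10 regions at P2 to 3 at P8, Wnt7b from 17 to 13, and Fzd6 runs the other way, from 3 to 6.

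The regions of the Wnt genes lay outside the gene more often than those of all genes, a difference that was not tested. The median gene of the 46 had 4.5 regions, against 2 over all genes with a region, and Wnt7b had the most, 18. Of the 267 regions 136 (50.9%) overlapped the gene itself, where the share over all assigned regions was 67.1%, and 64 (24.0%) lay more than 20 kb outside it, where the share was 14.8%. The Frizzled genes, 8 of which are 2.11 to 7.19 kb long (Fzd6 and Fzd3 are 32.0 and 70.0 kb), had 14 of 45 regions inside (31.1%). Lrp5 and Lrp6, which are 102 and 120 kb long, had 22 of 24 inside (91.7%). The part of gene length in this measure was not tested. By age, 126 regions (47.2%) were called throughout (51.9% over all assigned regions), and 55 (20.6%) at P2 alone (15.8% over all assigned regions). A further 32 were called at P2 and P5, 15 at P5 and P8, 7 at P2 and P8, 13 at P5 alone and 19 at P8 alone.

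The steps between ages are described separately and share the P5 list. From P2 to P5, 28 regions of the Wnt genes were gained and 62 lost, with 23.8% of all assigned P2 regions lost, 15.8% of all assigned P5 regions gained, and gains at 37.6% of all changes. From P5 to P8, 26 were gained and 45 lost, beside 21.5% lost, 15.7% gained and gains at 40.4% of changes over all assigned regions. The ligands lost 26 regions in the earlier step and 16 in the later one, whereas the Lgr receptors lost 3 in the earlier step and 12 in the later one. Axin2 and Lef1 lost 10 regions from P2 to P5 and 4 from P5 to P8. The losses of the 2 steps do not add up to those from P2 to P8. Some regions lost in the later step were called at P5 alone, and a region lost in the earlier step can be called again at P8.

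**Figure D2:**
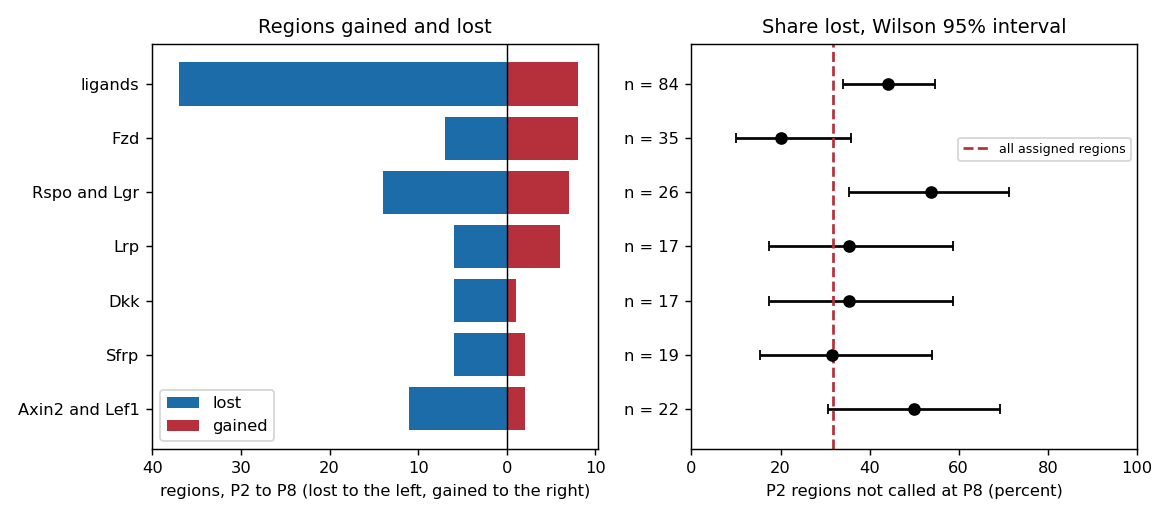
Left, regions lost (blue, leftwards) and gained (red, rightwards) from P2 to P8 in each group of genes. Right, the share of the group's P2 regions that were not called at P8 with its Wilson 95% interval (n is the number of P2 regions), where the dashed line is the share over all assigned regions, 31.7%; the ligands lie at 44.0%, the Fzd genes at 20.0% and the Rspo and Lgr genes at 53.8%.

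The 18 ligand genes went from 84 regions at P2 to 63 at P5 and 55 at P8. They lost 37 regions and gained 8, so that 44.0% of their P2 regions (33.9% to 54.7%) were gone at P8. The share over all assigned P2 regions was 31.7%. By gene, 12 ligands had more losses than gains, 2 (Wnt2 and Wnt5a) had more gains than losses, 3 had as many of each and Wnt10b had no region. Over all 15860 genes with a region, 6040 had more losses, 2202 more gains and 7618 neither. The ligands with a region had a median of 4 regions, against 2 over all genes with a region, and the counts by gene were not matched for this. With lists of equal length the ligands gained 9 and lost 21, and all genes gained 9545 and lost 9835.

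Wnt7b, a ligand that acts in lung and bone growth, had the most regions of any of the 47 genes, in age order 17, 13 and 13. Of these, 12 were called at all ages. Its strongest region was at chromosome 15, 85634429 to 85634937 (mm10), 52608 bp beyond the gene on the side of higher coordinates. The authors' −log10 p-value of that peak was 959 and 794 in the 2 inputs of the P2 list, 321 and 455 at P5, and 422 and 301 at P8. It lay at percentile 99.7, 99.6 and 99.4 of the P2, P5 and P8 lists, so few peaks of any list were ranked above it. These values order peaks within a list and are not compared between ages. The 5 Wnt7b regions lost were in the lower ranks, none of them above percentile 43.2 at P2, and 1 of them overlapped the extent of a P8 input peak.

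Wnt11, a ligand of the polarity branch, went from 9 regions to 6 and then 4, with 5 lost and none gained. Its strongest region, 19458 bp before the gene at chromosome 7, 98815122 to 98815626, was called at all ages at percentile 85.4, 86.0 and 85.6. Less than 1 kb away, the region at 98816023 to 98816521 was called at P2 alone, with −log10 p of 174 and 178 in the inputs and percentile 82.1, the highest of any lost region of the 47 genes. Here the full extent of a P8 input peak still overlapped the lost window by at least 1 bp. The loss is thus of a separate peak in the list, and how much of the window stayed accessible was not measured. With full input extents Wnt11 had a net change of −4 in place of −5. Inside the gene, the region at 98851205 to 98851703 was called at P2 (116 and 59.7 in the inputs, percentile 51.3) and P5 (24.3 and 23.8, percentile 28.4) and not at P8. The region over the inner start, at 98838714 to 98839212, was called at P2 alone near the bottom of the list, at percentile 5.50.

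Wnt4, a ligand needed for kidney tubule formation, had 9, 4 and 5 regions by age, 6 being lost and 2 gained. The lost ones lay at percentiles 6.41 to 40.7 of the P2 list, and its strongest region, 45560 bp before the gene at chromosome 4, 137231385 to 137232075, was called at all ages at percentile 50.4, 52.2 and 54.6. A region 92746 bp before the gene appeared at P5 (percentile 12.5) and was called again at P8 (percentile 43.3). With lists of equal length the net change of Wnt4 was −1 in place of −4.

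Wnt5a, the ligand known for the elongation of the cochlear duct, moved little, with 4, 5 and 5 regions, 2 gained and 1 lost. Its sign depends on the threshold, since peaks with an IDR of at most 0.01 gave a net change of −2. Its region with the highest mean rank, inside the gene at chromosome 14, 28507444 to 28507957, was at percentile 32.5, 52.5 and 27.0. Wnt5b, its close paralogue, had 9, 9 and 5 regions. Its 5 lost regions included 4 that were still called at P5. Its strongest region, inside the gene at chromosome 6, 119478966 to 119479469, was kept at percentile 86.8, 84.8 and 83.5.

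Wnt9a, a ligand of joint formation, kept 6 of 7 regions, and its strongest, at chromosome 11, 59309002 to 59309523 inside the gene, was at percentile 77.6, 68.4 and 54.4. Wnt7a, which patterns the dorsal limb, had 4, 2 and 1 regions. The one kept at all ages was the strongest, 13957 bp from the gene at chromosome 6, 91349510 to 91350024, at percentile 77.2, 72.1 and 73.3. Wnt3a had 4, 3 and 2 regions and Wnt8b 4, 2 and 2. Both kept their strongest regions, at chromosome 11, 59238826 to 59239325 (Wnt3a, percentile 74.9, 81.8 and 82.5) and at chromosome 19, 44474056 to 44474657 (Wnt8b, percentile 82.8, 80.0 and 85.6). With lists of equal length Wnt7a, Wnt7b and Wnt8b had a net change of 0.

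Several ligands lie side by side in the genome as pairs, and the pairs differed. Wnt3 and Wnt9b, whose gene bodies overlap on chromosome 11, together went from 4 regions to 1 and then none. With lists of equal length the net change of Wnt9b was −1 in place of −3, and that of Wnt3 stayed at −1. The 4 regions lay at percentiles 4.09 to 31.9 of the P2 list. Wnt9b held 3 of these, among them its start at 103749660 to 103750158 (percentile 13.6 at P2) and a region at 103721495 to 103722001 that was called at P2 (39.2 and 53.6 in the inputs, percentile 31.9) and P5 (32.2 and 35.7 in the inputs). Wnt6 and Wnt10a on chromosome 1 had 8, 7 and 7 regions, 7 of them at all ages, so this pair hardly changed. Wnt3a and Wnt9a on chromosome 11 had 11, 10 and 8. Wnt1 and Wnt10b on chromosome 15 were given 1 region, called at P2 alone, but over the pair and 20 kb to each side there were 5, 3 and 3 regions by age, 2 of them at all ages, and the others of these were nearest to other genes.

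The strongest gain at a ligand was inside Wnt2b, where the region at chromosome 3, 104956311 to 104956809 was called at P8 alone, with −log10 p of 41.3 and 44.3 in the inputs and percentile 64.5. At the same gene the start region, at 104961454 to 104961952, was called at P2 alone (percentile 22.2). A region 6216 bp outside Wnt2b on the side of its start stayed called at percentile 78.4, 77.1 and 78.7.

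The counts of the 10 Frizzled genes were 35, 38 and 36, and 8 regions were gained and 7 lost. They lost 20.0% of their P2 regions (10.0% to 35.9%), an interval that includes the 31.7% of all assigned regions. By gene, gains outnumbered losses at 4, losses outnumbered gains at 5, and 1 was even. With lists of equal length they gained 8 and lost 4. With an IDR of at most 0.01 the net change was −3 at Fzd2, −2 at Fzd7 and −1 at Fzd3 and Fzd9. It was 2 at Fzd6, 1 at Fzd10 and 0 at the remaining Frizzled genes, so losses then outnumbered gains in the group.

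Fzd6, which with Fzd3 orients hair bundles in the planar polarity pathway, grew from 3 regions to 5 and 6 and lost none. The 3 regions of P2 were called at all ages, the strongest at the lower end of the gene at chromosome 15, 39006022 to 39006522 (percentile 72.9, 64.4 and 61.9). The gained ones were 17138 bp from the gene on the side of lower coordinates, inside it, and 15480 bp from it on the other side. In that order they lay at percentiles 8.18, 33.7 and 40.5 of the P8 list. Fzd3 itself went from 3 regions to 2. Fzd10 had 5, 9 and 7 regions, with 3 gained and 1 lost. The Fzd10 gains lay at percentiles 0.53, 45.0 and 53.0 of the P8 list. The strongest of its gains, 42458 bp before the gene at chromosome 5, 128558147 to 128558648, was not called at P2, lay at percentile 25.6 at P5 (22.7 and 25.8 in the inputs) and at 53.0 at P8 (57.3 and 31.6). Its region with the highest rank, at 128575932 to 128576880, was kept at percentile 74.3, 78.8 and 76.0.

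Fzd2 and Fzd7, close relatives in sequence, each kept a strong region at the gene, at chromosome 11, 102604022 to 102604525 for Fzd2 (percentile 88.3, 94.2 and 94.2) and at chromosome 1, 59481742 to 59482240 for Fzd7 (percentile 91.5, 95.8 and 95.2). Fzd2 went from 6 regions to 4 and 4. The region 16098 bp from it, at 102624156 to 102624679, was called at P2 (130 and 93.6 in the inputs, percentile 67.6), at P5 (20.1 and 39.4, percentile 17.3) and not at P8. Fzd7 had 7, 6 and 6. At Fzd8, a region 21616 bp outside the gene was called at P8 alone (37.0 and 30.2 in the inputs, percentile 50.8).

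**Figure D3:**
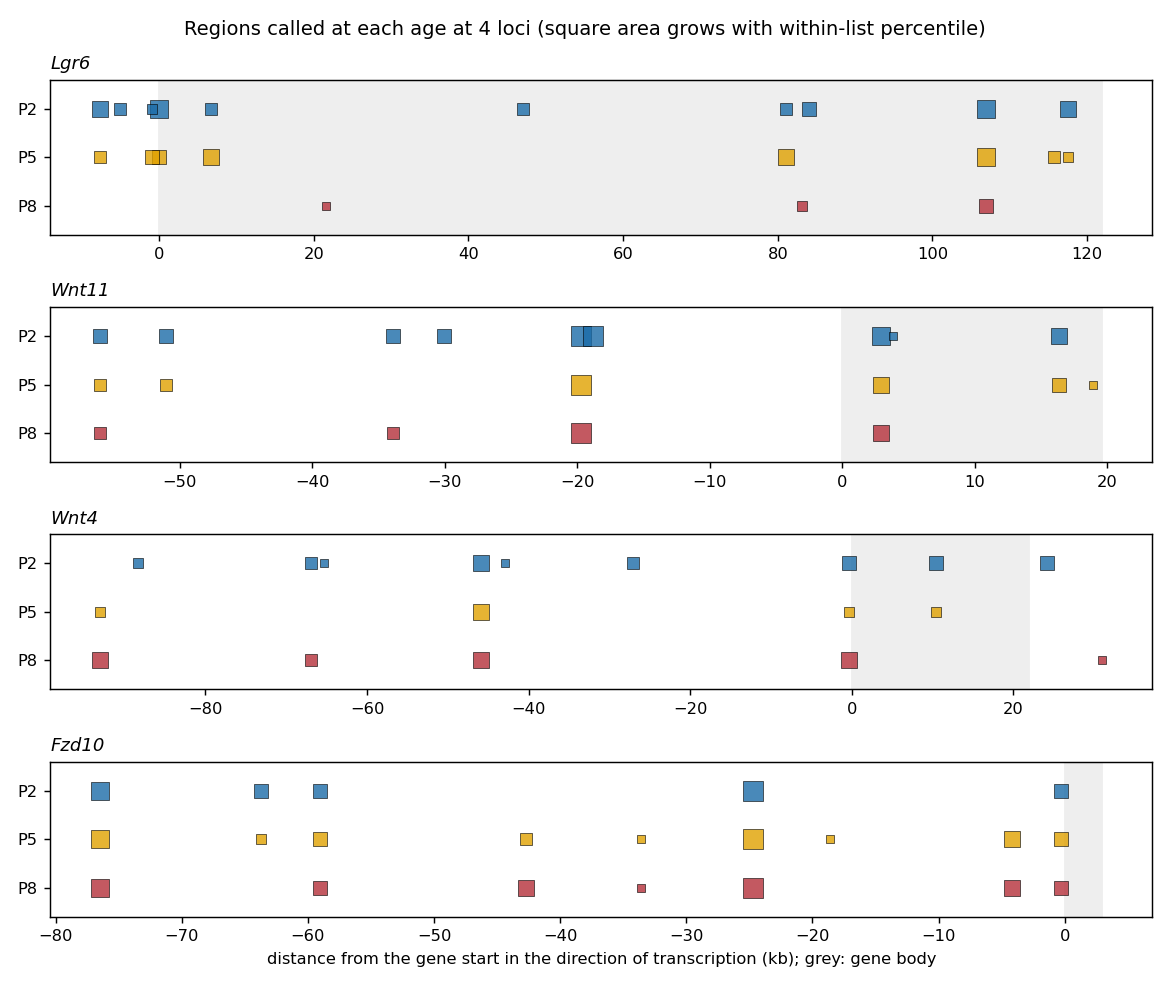
Regions called at P2, P5 and P8 (rows of squares) at Lgr6, Wnt11, Wnt4 and Fzd10, placed by distance from the outermost gene start in kb in the direction of transcription; the grey band is the gene and larger squares have a higher percentile in their list. Lgr6 has 10 squares at P2 and 3 at P8, Wnt11 has 9 and 4, Wnt4 has 9 and 5, and Fzd10 has 5 and 7.

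R-spondins and Lgr receptors together had 26, 29 and 19 regions by age, 7 of them gained and 14 lost. They lost 53.8% of their P2 regions (35.5% to 71.2%), beside 31.7% of all assigned P2 regions. The 4 Rspo genes had 9, 11 and 9 regions (3 gained, 3 lost). The 3 Lgr genes had 17, 18 and 10, with 4 gained and 11 lost, which is 64.7% of their P2 regions (41.3% to 82.7%). The difference between these 2 groups was not tested, and Lgr6 alone supplied 9 of the 11 losses.

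Lgr6, a receptor found on a subset of cochlear supporting cells, had 10, 8 and 3 regions by age, and 1 was called throughout. That region, inside the gene at chromosome 1, 134998142 to 134998646, had −log10 p of 104 and 107 in the inputs at P2 (percentile 70.7), 49.7 and 73.2 at P5 (percentile 67.0) and 44.7 and 22.7 at P8 (percentile 35.2). The start itself, at 135105056 to 135105578, was called at P2 (97.0 and 79.4, percentile 62.3) and at P5 (25.3 and 30.5, percentile 33.0) and was absent from the P8 list. Regions 7253 bp outside the gene beyond the start, at 135112627 to 135113125 (percentile 54.9 at P2, 20.6 at P5), and near the 3′ end, at 134987509 to 134988011 (percentile 53.4 and 12.7), followed the same pattern. Of the lost regions 3 were in the upper part of the P2 list, above percentile 50, while the 2 gained regions lay at percentiles 3.64 and 9.22 of the P8 list. The net loss was 7 regions with lists of equal length as well.

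Lgr5, the marker of cochlear supporting cells that can form hair cells in the newborn, had 5, 7 and 3 regions by age. The region at the upper end of the gene, at chromosome 10, 115587263 to 115587773, was the strongest and was kept at percentile 69.1, 69.4 and 65.9. A region 5407 bp beyond that end, at 115593187 to 115593686, was called at P2 (85.9 and 72.0, percentile 58.7) and at P5 (20.2 and 29.3, percentile 18.1) and not at P8. The same pattern held for the region 36050 bp beyond it (percentile 45.1 at P2 and 14.1 at P5). Lgr4, the broadly expressed receptor of the family, went the other way with 2, 3 and 4 regions. Its start, at chromosome 2, 109917327 to 109917825, was among the strongest regions at every age (percentile 98.7, 98.0 and 98.8), and its 2 gained regions were in the lower ranks (percentile 3.23 and 15.2).

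Rspo2, an R-spondin needed for limb and lung formation, had 5 regions at each age, 4 of them the same. The strongest, 24122 bp from the gene at chromosome 15, 43195716 to 43196222, lay at percentile 75.9, 75.7 and 77.3. Rspo3 had 2, 3 and 2 regions with none called at all ages, since 2 were lost and 2 gained. Rspo4 kept its 2 regions, and Rspo1 had 1 region, at P5 alone.

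Lrp5 and Lrp6, the co-receptors of the beta-catenin branch, had 17, 14 and 17 regions in all, with 6 gained and 6 lost. Lrp5, also known for its part in bone mass, went from 10 regions to 9 and 12. Its gained regions lay at percentiles 1.97 to 34.3 of the P8 list, and 1 of the 5 overlapped the extent of a P2 input peak. With an IDR of at most 0.01 its net change was −1 in place of 2. The strongest Lrp5 region, inside the gene at chromosome 19, 3669084 to 3669584, was at percentile 90.2, 90.5 and 92.8. Lrp6 went from 7 regions to 5 and 5, and its strongest region, at the upper end of the gene at chromosome 6, 134566661 to 134567166, was at percentile 83.3, 79.3 and 86.2.

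The 3 Dkk genes had 17, 13 and 12 regions, with 1 gained and 6 lost. The loss is 35.3% of their P2 regions (interval 17.3% to 58.7%, which includes the 31.7% of all assigned regions). Most regions of the Dkk genes belong to Dkk3, the divergent member of the family, whose strongest region lies 10637 bp from the gene at chromosome 7, 112170119 to 112170647 (percentile 85.9, 88.4 and 82.0). The strongest region that Dkk3 lost, inside the gene at 112144684 to 112145212, had 91.6 and 75.6 in the inputs at P2 (percentile 60.6) and 25.4 and 36.8 at P5 (percentile 33.1). Dkk1, an inhibitor that binds Lrp5 and Lrp6, kept its 2 regions. Among the regions called at all 3 ages, which are the same at each age, its start stood at percentile 42.7, 19.0 and 8.91 and its region 94464 bp away at 15.5, 11.8 and 47.7.

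The 5 Sfrp genes had 19, 15 and 15 regions, with 2 gained and 6 lost (31.6%, interval 15.4% to 54.0%), near the share of all assigned regions. Sfrp1, which binds Wnt ligands outside the cell, accounted for 4 of the 6 losses and had 7, 4 and 4 regions. Its strongest region, at the lower end of the gene at chromosome 8, 23411163 to 23411670, was kept at percentile 73.0, 54.4 and 66.0. Sfrp2 and Sfrp4 kept all their regions, 5 and 2.

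Axin2 and Lef1, a feedback inhibitor and a transcription factor of the beta-catenin branch, are the members that serve as readouts of signalling. Together they had 22, 14 and 13 regions, with 2 gained and 11 lost. That is 50.0% of their P2 regions (30.7% to 69.3%), an interval that includes the 31.7% of all assigned regions. Axin2 had 11, 8 and 7 regions. Its strongest, just downstream of the start at chromosome 11, 108920549 to 108921053, was kept, with 245 and 239 in the inputs at P2, 92.1 and 166 at P5 and 164 and 129 at P8 (percentile 87.0, 84.1 and 90.7). The 4 Axin2 losses lay at percentiles 12.9 to 34.1 of the P2 list. Lef1 had 11, 6 and 6 regions, 7 lost and 2 gained, and its losses lay at percentiles 0.78 to 35.0. Lef1's region with the highest mean percentile, 3928 bp before the gene at chromosome 3, 131105741 to 131106369, was kept at percentile 53.9, 41.0 and 58.7. Over the outer Lef1 start, the region at 131110018 to 131110516 was called at P2 alone (47.6 and 41.4 in the inputs, percentile 35.0), and over an inner start the region at 131112159 to 131112669 was called at all ages (percentile 67.2, 27.9 and 41.4), the highest of the gene at P2. With lists of equal length the net change of Axin2 was −2 in place of −4, and that of Lef1 was −1 in place of −5.

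The remaining 23 genes had 0 to 5 regions each and a net change between −1 and 1. Over all 47 genes, lost regions had a median percentile of 22.2 in the P2 list and gained regions one of 15.7 in the P8 list, against 60.1 in the P2 list for regions called at both P2 and P8. Over all assigned regions these medians were 23.2, 20.8 and 66.5. Of the 87 lost and 34 gained regions, 8 and 3 reached percentile 50 in the list that held them, and all 11 of these are described above.

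Regions called at all 3 ages can also be compared by their order, since the same 32681 regions are then ranked at each age. The Wnt genes held 126 of these, and from P2 to P8 12 of them moved up by at least 20 percentile points and 21 moved down. Over all assigned regions 11.0% moved up and 11.0% moved down, beside 9.52% and 16.7% for the Wnt genes. The largest moves down were at Fzd8 (48.7 to 4.94), the Sfrp2 start (63.0 to 20.5) and Wnt3a (47.9 to 7.62). Among the moves up were 3 regions of Wnt7b, the largest from 3.90 through 25.9 to 50.2, and 3 of Dkk3, from 4.78 to 43.4, from 21.5 to 59.2 and from 4.88 to 41.1. Thus Dkk3 and Wnt7b, which lost regions, also held regions that rose in order, although another Dkk3 region moved down, from 31.2 to 11.1. No region of the Rspo and Lgr genes moved up while 3 of 12 moved down. These counts are too small to set the group apart from the 11.0% each way over all assigned regions.

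**Figure D4:**
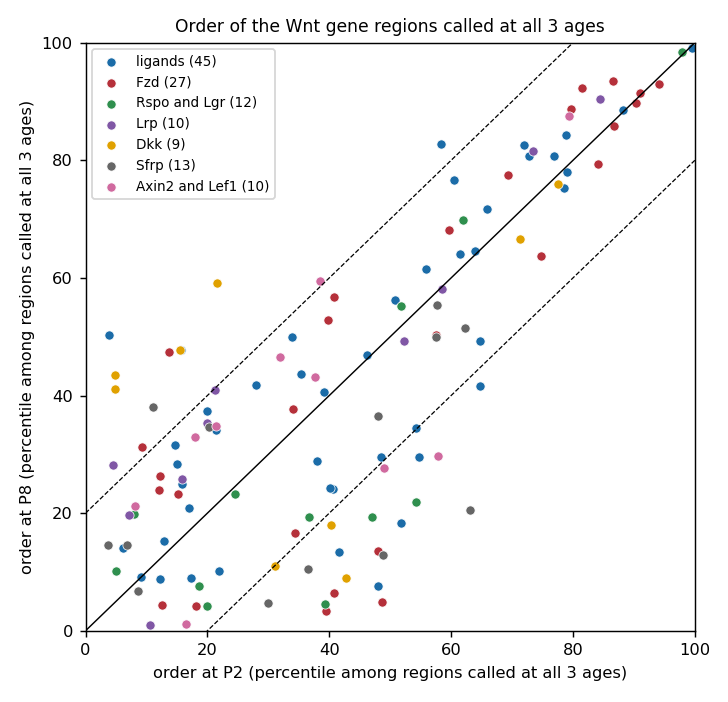
Order of the 126 Wnt gene regions called at all ages, as percentile among all such regions, at P2 (x axis) and P8 (y axis), coloured by group with the number of regions in brackets. The solid line is no change and the dashed lines are 20 points either way; 12 points lie above the upper and 21 below the lower dashed line.

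A gene counts here as called at its start when any of its start windows was overlapped, and differences between the groups were not tested. All 6 Frizzled genes with a start entry (Fzd1, Fzd4, Fzd5, Fzd7, Fzd9 and Fzd10) had a region over the start at P2, P5 and P8. Of the 15 ligands with an entry, 6 had one at P2, 3 at P5 and 3 at P8. Wnt4 and Wnt9a were called at all ages, as was Wnt5b through different starts (one called at P2 and P5, another at P2 and P8), Wnt2b, Wnt9b and Wnt11 at P2 alone, and 9 ligands at none. Over the 32 Wnt genes with an entry the counts were 18, 15 and 14, beside 54.9%, 52.3% and 52.1% of all 17491 genes with an entry at P2, P5 and P8. Of the 18 Wnt genes called at P2, 4 had no start called at P8 (Lgr6, Wnt2b, Wnt9b and Wnt11), and over all genes called at P2 that share was 6.58%. Their lost start regions lay at percentiles 62.3 (Lgr6), 22.2 (Wnt2b), 13.6 (Wnt9b) and 5.5 (Wnt11) of the P2 list. That list is longer than the P8 list, and starts were not counted with lists of equal length. Single starts of Lef1 and Wnt5b were also called at P2 and not at P8. When the full extent of the peaks in the inputs was used, the counts were 20, 16 and 15 (58.2%, 55.3% and 55.2% of all genes). Axin2 was then called at all ages and Wnt7a at P2 alone, so Wnt7a joined the same 4 genes with a start called at P2 and none at P8.

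**Figure D5:**
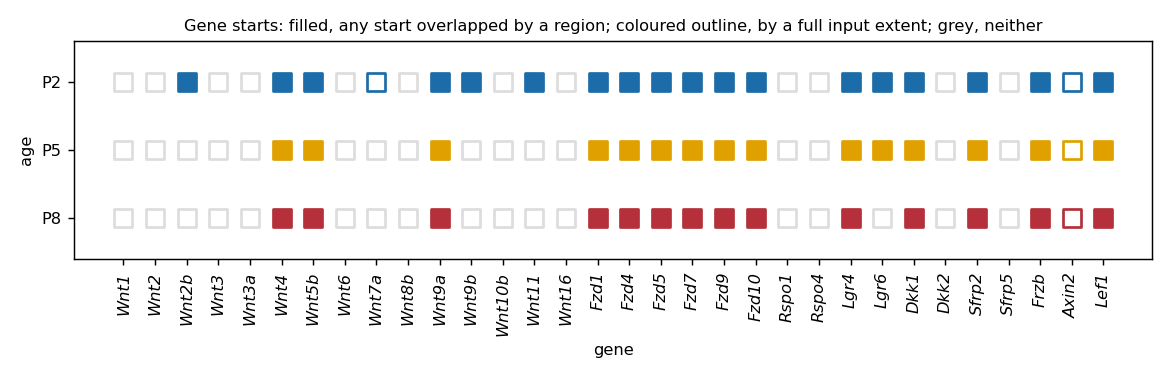
Start windows (250 bases before to 50 after a RefSeq start) of the 32 genes with an entry (x axis) at P2, P5 and P8. A filled square marks a gene with any start overlapped by a region, an open coloured square one with a start overlapped by the full extent of an input peak alone, and a grey square neither; the 6 Fzd genes are filled at all ages and 9 of the 15 ligands at none.

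The base composition of called and uncalled starts was much alike among these genes. The median GC content of the 300-base windows was 66.7% for starts called at all ages (13 windows), 67.5% for those called at some ages (8) and 66.3% for those not called (17), against 56.3% over all 21262 windows. The GC box was found in 28 of 38 windows of the Wnt genes (73.7%, all windows 46.2%). The TCF and LEF letters were found in 3 of 38, those of Dkk1, Wnt11 and Wnt5b (7.89%, all windows 7.57%).

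The other genes of the pathway were counted from 4 lists, and each direction is the number of genes with more gained than lost regions or the reverse. The values to set beside them are 31.7% of P2 regions lost over all assigned regions and, of 15860 genes with a region, 2202 up, 6040 down and 7618 neither. Genes were not matched for their number of regions, which had a median of 2 over all genes with a region. The 4 gene lists were not recounted with peak lists of equal length. The 25 genes of intracellular transduction had 138, 114 and 114 regions by age, 18 being gained and 42 lost (30.4% of P2 regions, interval 23.4% to 38.6%, which includes the 31.7%), and 5 genes went up and 11 down. Among them Tcf7l2, a partner of beta-catenin on DNA, went from 17 to 12 and 11 regions, and Ctnnb1, the gene of beta-catenin, from 5 to 4 and 4. The 19 genes of secretion and extracellular modulation had 96, 87 and 76 regions, with 15 gained and 35 lost (36.5%, interval 27.5% to 46.4%), 5 genes up and 10 down. Here Wif1, a secreted inhibitor that binds Wnts, went from 5 to 4 and 2, and Kremen1, a Dkk receptor, from 6 to 7 and 8.

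The 19 genes of planar polarity and the alternative receptors had 129, 106 and 90 regions, with 21 gained and 60 lost, which is 46.5% of their P2 regions (38.1% to 55.1%), beside the 31.7% of all assigned regions. Losses outnumbered gains at 16 of the 19, gains did so at none, and 3 (Celsr2, Prickle3 and Scrib) did not change. These 19 genes held 159 regions, so their count by gene is not like for like with that over all genes. Daam1, an actin regulator downstream of Dishevelled, went from 15 and 16 to 6 regions, Ror1, a Wnt5a receptor, from 16 to 13 and 11, and Vangl2, a core polarity protein of hair cells, from 5 to 4 and 3. The 15 targets and feedback genes had 78, 71 and 73 regions, with 19 gained and 24 lost (30.8%, interval 21.6% to 41.7%), 4 genes up and 7 down. Id2, an inhibitor of bHLH factors, went from 4 and 4 to 8, and Ccnd1, which drives the cell cycle, from 11 to 7 and 7. Differences between the lists were not tested.

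Each list of cochlear markers had regions at every age. Hair cell markers had 21, 14 and 14 regions (list of 6 genes), and supporting and prosensory cell markers 17, 17 and 16 (6 genes). The greater epithelial ridge had 14, 14 and 11 (5 genes), marginal cells 40, 32 and 30 (4 genes) and fibrocytes 18, 13 and 17 (4 genes). Not every gene of a list was called at each age. Genes with a region numbered 5, 5 and 6 for hair cells and 4, 3 and 4 for fibrocytes. Over all assigned regions the counts were 48110, 43562 and 40537, and lists of so few genes are given as counts. Among markers of other cell types, the 4 bone markers (Ibsp, Dmp1, Bglap and Sp7) had 8, 10 and 16 regions, with 8 gained and none lost. Of these gains 4 were at Ibsp, 3 at Dmp1 and 1 at Bglap, and Sp7 gained none. Over all assigned regions 19.0% of P8 regions were gained and 31.7% of P2 regions lost. The 4 skeletal muscle markers (Myog, Myh3, Myod1 and Ckm) had 10, 6 and 4 regions, and the 4 chondrocyte markers (Col2a1, Acan, Matn1 and Sox5) 41, 37 and 33. The chondrocyte markers lost 39.0% of their P2 regions (25.7% to 54.3%), an interval that includes the 31.7% of all assigned regions. Spiral ganglion neuron markers had 15, 15 and 12 regions, Schwann cell markers 19, 12 and 12 (none gained, 7 lost), macrophage markers 4, 7 and 6 and endothelial markers 18, 11 and 14, each from a list of 4 genes. Prph of the neuron markers and Adgre1 of the macrophage markers had no region at any age. The part of these cell types in the changes at the Wnt genes was not tested.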

How the data were processed

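ATAC-seq peaks of mouse cochlea were analysed at 3 ages. Trimmomatic 0.33, Subread 1.4.6-p3, MACS2 2.1.0 and build mm10 are named in the submitters' processing notes, with no settings, and no source used here describes read shifting, filters or pooling. The ranking values and IDR scores in the deposited lists are on the −log10 p-value and −log10 IDR scale, and every kept peak has an IDR of at most 0.05. The authors' peaks are 499 bp wide and the files also give base positions of each peak in the 2 inputs. The lists hold no read counts, so depth is unknown and Wilson intervals (95%) cover counting error in regions only. Starts were read as 0-based and are printed 1-based, which the lists do not state, so positions may be off by 1 bp.

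Genes came from the RefSeq table of GRCm38.p6 (21883 protein-coding genes), which gives no exons or UTRs, so a region is placed only as inside or outside a gene. Merging, assignment and counts were done in Python 3.11.15 with pandas 2.3.3 and numpy 2.4.6, figures in matplotlib 3.10.9, and merging and assignment were tested on simulated data. Genes with at least 6 regions or a net change of at least 2 are described; regions with coordinates are the highest ranked of each such gene and changes at percentile 50 or above, and others named were chosen after their values were seen. The members and lists were chosen with earlier results of these data known. Alternatives changed the overlap, IDR limit, list length, distance, assignment rule, rank and use of P5; full input extents and leaving out Wnt3 and Wnt9b were added after seeing the data.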

Additional observations from a re-analysis of the deposited data

How the results depend on the processing

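The number of gained regions, 34, was 21 with an IDR of at most 0.01, 3 when a change had to be in the upper 50% of its list and 15 when P5 had to support it. The number lost, 87, was 8 and 32 under the last 2 settings. The share of gains, 28.1%, was 20.8% with the IDR limit and 40.2% with lists of equal length. Giving a region to every gene within 50 kb brought the counts to 280 at P5 and 254 at P8. By group, the share of gains was 0% (0 gained, 2 lost) for Axin2 and Lef1 with P5 support, 0% for the Dkk genes (0 and 1) and for the Rspo and Lgr genes (0 and 4) and 33.3% for the ligands (1 and 2) in the upper 50%, 25.0% for Lrp5 and Lrp6 with the IDR limit (2 and 6), and 0% for the Sfrp genes within 20 kb (0 and 4). The sign of the net change turned at Fzd4 (−1, nearest gene end), Lrp5 (−1, IDR limit), Lrp6 (1, P5 support) and Wnt5a (−2, IDR limit, and −1, P5 support). For the Frizzled genes as a group it turned with the IDR limit and with every gene within 50 kb. The causes were not tested. The other 120 of 135 group-level values, and 337 of 470 single-gene values, stayed within the limits set around the reported ones. A further 128 single-gene values moved, of which 47 kept the sign of the net change, 60 went to a net of 0 and 21 left a net of 0. For a share of gains the limit was the Wilson interval of the reported share, which is wide for small groups (2.57% to 51.3% for the Dkk genes). Counts and net changes had to stay within a set ratio of the reported value.

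In the upper 50% no changed region was left for Lrp5 and Lrp6, the Sfrp genes, or Axin2 and Lef1, so no share could be given. Leaving out a replicate could not be run and no error between animals can be given, because the lists are 1 per age. No paired analysis was possible because the lists carry no replicate. The lists end at ranking values of 19.5, 13.5 and 11.4 in age order, so a region missing from a list may still be accessible below its limit. Nearest-gene assignment does not show which gene a region acts on.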
